A study of Homo sapiens with 6 samples.

Results

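The transcripts described here are those of 2 RAS genes, NRAS and HRAS, of the feedback inhibitors SPRY1, SPRY2, SPRY4, SPRED1 and SPRED2, and of the transcription factors ETV4 and ETV5. They were selected by gene symbol, with earlier results of these libraries known, and all 9 symbols were present among the 20683 in the count tables. The cells were HT-1080, a human fibrosarcoma line known to carry a mutant NRAS allele, kept in medium with serum. Treated cells, the group HT1080_INH_4h, received SLV-8472-01, which the series describes as an IRAK4 inhibitor, for 4 h. Control cells, the group HT1080_DMSO_4h, received 0.1% DMSO for 4 h. The labelled inhibitor dose was 5 mM, and the labels do not say whether this was the concentration on the cells or in a stock. Each group had 3 libraries, described as biological replicates of this 1 line, and both groups carry the same NRAS genotype. A library held between 7644478 and 11427779 counts with the inhibitor and between 12003104 and 15336351 with DMSO, so every inhibitor library was shallower than every DMSO library.

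RAS proteins are small GTPases at the plasma membrane that, when bound to GTP, start the RAF-MEK-ERK kinase cascade. Active ERK induces genes that restrain the cascade. Sprouty proteins act on the signal between receptor and RAF, and Spred proteins bring the GTPase-activating protein neurofibromin to RAS at the membrane. ETV4 and ETV5 belong to the PEA3 group of ETS transcription factors and, like Sprouty genes, are widely used as transcriptional readouts of ERK activity. In a cell with an oncogenic RAS allele the cascade is fed from RAS itself, and feedback transcripts are commonly high. IRAK4, the named target of the compound, is a kinase of the innate immune signal that starts at Toll-like and interleukin-1 receptors.

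ETV5 was the only one of the 9 genes that passed the test, and it rose 1.44-fold. SPRED1 was lower and SPRED2 and ETV4 were higher in every inhibitor library than in any DMSO library, and none of these 3 was called (fold 0.816 for SPRED1, 1.22 for SPRED2 and 1.17 for ETV4). SPRY2, SPRY4, NRAS and HRAS overlapped between the groups, and SPRY1 had no count in any library. Of the 8 members that passed the low-count filter, 1 rose and 0 fell, against 9.92% of the 11391 tested genes that rose and 10.3% that fell. With library totals alone as the scaling, under which the all-gene median moved to -0.07 (log2), the table held 831 rises and 1714 falls in place of 1130 and 1168. In all, 20.2% of the tested genes changed, by an adjusted p under 0.05 in the quasi-likelihood test of edgeR. At an unadjusted p under 0.05 in that test the members counted 2 higher (ETV5 and SPRED2) and 1 lower (SPRED1). Of the 11391 tested genes, 1860 were higher and 1941 lower at the same unadjusted threshold. Among the members, DESeq2 and limma voom each called 1 rise and 0 falls. The median log2 fold change of the 8 members was 0.15, and that of all tested genes 0.0034. The groups did not overlap for 4 of the 8 members, against 36.3% of all tested genes.

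**Figure D1:**
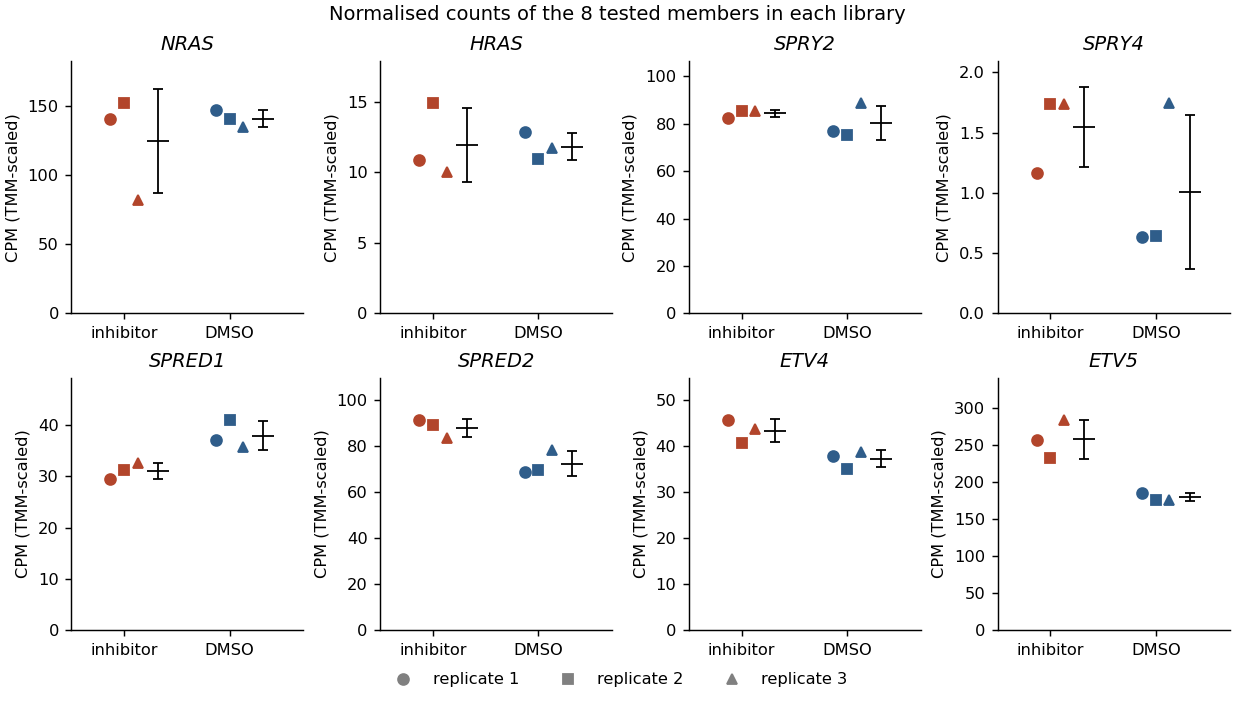
Normalised counts (CPM with TMM scaling, y axis from 0) of the 8 tested members in each library, inhibitor (red) and DMSO (blue). Symbols mark the replicate, and the bar beside them gives mean ± SD over 3 libraries. ETV5, ETV4 and SPRED2 lie higher and SPRED1 lower in the inhibitor libraries without overlap.

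NRAS encodes the RAS protein that is mutant in this line, and its counts do not separate transcripts by allele. It had 141, 152 and 82.0 CPM (counts scaled to a common library size, with the TMM factors) in inhibitor replicates 1, 2 and 3, against 147, 141 and 135 CPM in DMSO replicates 1, 2 and 3. Inhibitor replicate 3, the shallowest library, lay below every other library, and the remaining inhibitor libraries lay among or above the DMSO libraries. NRAS had a log2 fold change of -0.17 ± 0.15 (SE, edgeR adjusted p = 0.457), with a 95% interval from -0.48 to 0.14. Without inhibitor replicate 3 it was 0.05 ± 0.11 (adjusted p = 0.772). The spread of NRAS among inhibitor libraries (SD 37.6 CPM, n = 3) exceeded that among DMSO libraries (SD 6.12 CPM, n = 3).

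HRAS encodes a second RAS protein, which differs from NRAS mainly in the tail that anchors it to the membrane. It had 10.9, 14.9 and 10.05 CPM with the inhibitor, against 12.9, 10.9 and 11.7 CPM with DMSO. The groups overlapped throughout, and the means were 11.9 ± 2.60 CPM with the inhibitor and 11.8 ± 0.98 CPM with DMSO (SD, n = 3 each). For HRAS the log2 fold change was 0.02 ± 0.16 (edgeR adjusted p = 0.956), with an interval from -0.32 to 0.35. These values rest on 75 to 137 counts per inhibitor library and 141 to 202 per DMSO library. The ratio of NRAS to HRAS counts within a library was 12.95, 10.2 and 8.16 with the inhibitor, against 11.4, 12.9 and 11.5 with DMSO. The mean log2 ratio differed by -0.22, inhibitor minus DMSO (two-sided exact permutation test, p = 0.5, where 3 against 3 cannot go below 0.1). Such a ratio compares groups only, since 2 amplicons need not be amplified equally well.

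The Sprouty genes SPRY1, SPRY2 and SPRY4 encode cytoplasmic inhibitors of receptor signalling to RAS and RAF. SPRY1 had 0 counts in all 6 libraries, which allows up to 0.269, 0.326 and 0.402 CPM in the inhibitor libraries and up to 0.191, 0.194 and 0.249 CPM in the DMSO libraries (3 counts per library). These limits cover counting error only, and poor amplification of the targeted part was not tested. SPRY2 had 82.6, 85.2 and 85.4 CPM with the inhibitor, against 76.8, 75.4 and 88.7 CPM with DMSO. DMSO replicate 3 was the highest of the 6, so the groups overlapped. SPRY2 had a log2 fold change of 0.07 ± 0.11 (edgeR adjusted p = 0.672), with an interval from -0.14 to 0.29, so a rise as large as that of ETV5 (0.52) lies outside it.

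SPRY4 was counted too rarely for a firm value. It had 13, 16 and 13 counts with the inhibitor, against 10, 10 and 21 with DMSO, which is 1.17, 1.74 and 1.74 CPM with the inhibitor, against 0.64, 0.65 and 1.75 CPM with DMSO. DMSO replicate 3 matched the highest inhibitor libraries, while DMSO replicates 1 and 2 lay below all inhibitor libraries. Its log2 fold change was 0.65 ± 0.42 (edgeR adjusted p = 0.285), with an interval from -0.21 to 1.52. Leaving out DMSO replicate 3 gave 1.23 (adjusted p = 0.0674), leaving out DMSO replicate 1 gave 0.40 (0.583) and leaving out DMSO replicate 2 gave 0.41 (0.603). With all libraries thinned to equal depth the value was 0.36 (0.632). The ratio of SPRY4 to SPRY2 counts was higher with the inhibitor by 0.68 on the log2 scale (exact permutation p = 0.2). It overlapped between the groups through DMSO replicate 3.

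The Spred genes SPRED1 and SPRED2 encode related membrane-bound inhibitors that recruit neurofibromin to RAS. SPRED1 had 29.5, 31.2 and 32.6 CPM with the inhibitor, against 37.2, 41.1 and 35.7 CPM with DMSO. All inhibitor libraries lay below all DMSO libraries, an order shown by 18.7% of tested genes. SPRED1 had a log2 fold change of -0.29 ± 0.11 (edgeR adjusted p = 0.0742), with an interval from -0.53 to -0.06. SPRED1 was not called, except with library totals alone as the scaling (adjusted p = 0.0285).

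SPRED2 lay on the opposite side, with 91.2, 88.8 and 83.5 CPM with the inhibitor, against 68.5, 69.5 and 78.3 CPM with DMSO. All inhibitor libraries lay above all DMSO libraries, an order shown by 17.7% of tested genes. Its log2 fold change was 0.29 ± 0.10 (edgeR adjusted p = 0.056), with an interval from 0.07 to 0.50. It passed the threshold among genes of at least 10 CPM (adjusted p = 0.0413) and without inhibitor replicate 3 (0.0465), and over the other alternatives its adjusted p ran up to 0.191.

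Within each library, SPRED2 counts were 3.09, 2.84 and 2.56 times the SPRED1 counts with the inhibitor, against 1.84, 1.69 and 2.19 times with DMSO. The groups did not overlap in this ratio, which no scaling factor can move. The mean log2 ratio was 1.496 ± 0.135 with the inhibitor and 0.923 ± 0.190 with DMSO (SD, n = 3 each), a difference of 0.57. Its exact permutation p was 0.1, the smallest that 3 against 3 allows, and 0.2 after adjustment over the 4 ratios compared.

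**Figure D2:**
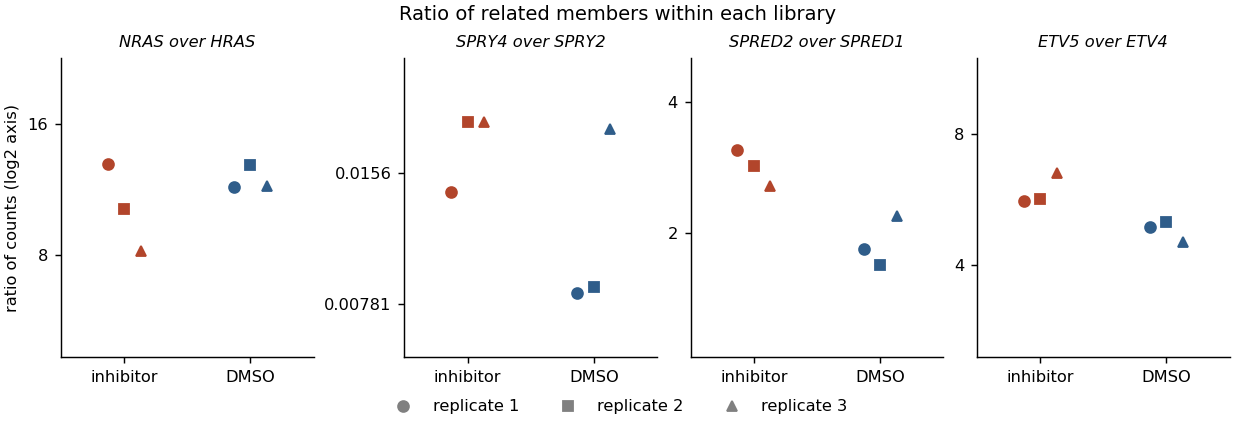
Ratio of counts of related members within each library (log2 y axis, each panel with its own range and the same span), inhibitor (red) and DMSO (blue), symbols by replicate. SPRED2 over SPRED1 and ETV5 over ETV4 are higher in all 3 inhibitor libraries than in any DMSO library, and the other 2 ratios overlap.

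To set this pair beside a known ERK feedback gene, the 250 bases upstream of a RefSeq transcription start (GRCh38.p14) are shown for SPRED1 (chr15:38252586-38252835, plus strand), SPRED2 (chr2:65432600-65432849, minus strand) and SPRY2 (chr13:80341127-80341376, minus strand). Each runs 5′ to 3′ towards the start. Capitals mark CCGGAA on either strand, a core that ETS factors such as ETV4 and ETV5 can bind. SPRED2 and SPRY2 have further starts, whose windows are not shown.
SPRED1: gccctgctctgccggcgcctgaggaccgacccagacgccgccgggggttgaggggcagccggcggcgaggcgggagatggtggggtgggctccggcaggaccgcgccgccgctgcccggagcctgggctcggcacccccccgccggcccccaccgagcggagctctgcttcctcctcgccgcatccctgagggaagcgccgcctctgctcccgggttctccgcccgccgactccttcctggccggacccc
SPRED2: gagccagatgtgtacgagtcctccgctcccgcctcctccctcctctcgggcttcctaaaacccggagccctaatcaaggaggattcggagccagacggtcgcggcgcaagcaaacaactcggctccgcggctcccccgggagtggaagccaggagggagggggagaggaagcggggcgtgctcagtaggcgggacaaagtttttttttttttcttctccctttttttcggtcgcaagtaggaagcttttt
SPRY2: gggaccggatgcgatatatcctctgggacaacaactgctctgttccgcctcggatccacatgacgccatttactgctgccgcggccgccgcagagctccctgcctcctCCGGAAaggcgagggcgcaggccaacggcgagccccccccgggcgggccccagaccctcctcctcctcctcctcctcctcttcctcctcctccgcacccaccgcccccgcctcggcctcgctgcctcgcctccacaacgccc
The SPRY2 window shown held 1 such core, beginning 142 bases before the start, and the windows of SPRED1 and SPRED2 held none. The further SPRY2 windows and the SPRY4 window also held none, so the contrast depends on the window shown. Over the members, 7 had RefSeq windows, 11 windows in all, and 3 of these held the core (1 each of HRAS, SPRY1 and SPRY2), against 14.5% of 35116 windows. ETV4 and ETV5 had no window, so no motif was searched for them, although ETV5 is the only called member. An AP-1 site (TGANTCA, both strands) was in 0 of the 11 windows, against 6.57% of all windows. The octamers bound by the repressor CIC (TGAATGAA or TGAATGGA, both strands) were in 0 of the 11, against 2.19%. Only the ETS core matched in the member windows, so no matches of different motifs overlapped there. A match is a run of letters and not a measured binding site, and the absence of one says nothing of binding elsewhere.

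ETV5 encodes a PEA3-group activator whose transcription follows ERK activity in many cell types. It had 256, 232 and 284 CPM with the inhibitor, against 185, 176 and 176 CPM with DMSO. All inhibitor libraries lay above all DMSO libraries, with the DMSO libraries close together. Mean levels were 257 ± 25.9 CPM with the inhibitor and 179 ± 5.41 CPM with DMSO (SD, n = 3 each). The log2 fold change was 0.52 ± 0.10 (edgeR adjusted p = 9.94e-04), with an interval from 0.31 to 0.74. A larger log2 fold change was found for 8.01% of the tested genes, among them SPRY4, which was not called. The depth of the libraries differed between the groups, and after thinning to equal depth ETV5 was at 0.53 on that scale (adjusted p = 0.00119).

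ETV4, the close relative of ETV5, had 45.7, 40.8 and 43.7 CPM with the inhibitor, against 37.9, 35.1 and 38.8 CPM with DMSO. The inhibitor libraries all lay above the DMSO libraries, by a narrow margin. ETV4 had a log2 fold change of 0.22 ± 0.11 (edgeR adjusted p = 0.167), with an interval from -0.01 to 0.45, and it was 0.13 in thinned libraries (adjusted p = 0.477). The ratio of ETV5 to ETV4 counts was 5.61, 5.69 and 6.497 with the inhibitor, against 4.89, 5.02 and 4.53 with DMSO. The difference of 0.30 on the log2 scale had an exact permutation p of 0.1, the smallest possible, and an adjusted p of 0.2 over the 4 ratios. A test of this size cannot reach 0.05, so it does not bear on whether the 2 genes changed unequally.

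**Figure D3:**
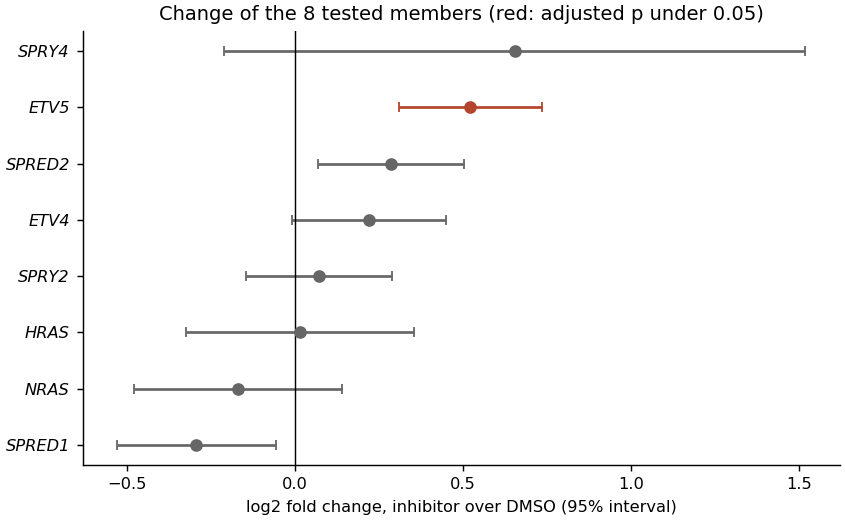
log2 fold change (inhibitor over DMSO, x axis) of the 8 tested members with its 95% interval from the edgeR fit, in order of size. ETV5 (red) was called, and the intervals of SPRED2 and SPRED1 leave out 0 without a call after adjustment over all 11391 tested genes.

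Among the profiles nearest to that of ETV5 was that of ZDHHC24, a member of the DHHC family of palmitoyltransferases. Likeness was the Euclidean distance between log2 CPM values centred on each gene's mean over the 6 libraries, which share their depth differences. The distance was 0.090 for ZDHHC24, against a median of 0.774 over 9235 genes with at least 5 CPM. ZDHHC24 was chosen for this nearness, so its distance, fold change and p follow from the choice and are no separate result. ZDHHC24 averaged 44.4 ± 3.33 CPM with the inhibitor and 31.3 ± 1.81 CPM with DMSO (SD, n = 3 each; log2 fold change 0.50 ± 0.11, edgeR adjusted p = 0.00311).

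The rest of the pathway is described by 10 lists that hold 106 symbols, of which 89 were tested, 15 rose and 9 fell, beside 9.92% of all tested genes that rose and 10.3% that fell. The median log2 fold change over the 89 was -0.02. The counts of the short lists that follow are descriptions, to be read against those shares. Upstream of RAS, the receptor kinase genes AXL and EGFR rose and the other 5 tested of 12 receptor genes were not called. AXL averaged 491 ± 41.2 CPM with the inhibitor and 331 ± 6.78 CPM with DMSO (SD, n = 3 each; log2 fold change 0.57 ± 0.10). EGFR, the receptor for epidermal growth factor, averaged 394 ± 52.1 CPM with the inhibitor and 306 ± 20.7 CPM with DMSO (0.36 ± 0.11, edgeR adjusted p = 0.0197). EGFR was no longer called when inhibitor replicate 3 (adjusted p = 0.0961) or DMSO replicate 2 (0.121) was left out.

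Of 10 tested exchange factors and adaptors, which load RAS with GTP or link receptors to that step, 0 rose and 3 fell in the edgeR test. DESeq2 and limma voom also called 0 and 3. At an unadjusted p under 0.05 in the edgeR test 0 were higher and 4 lower, beside 1860 higher and 1941 lower of all 11391 tested genes. The docking protein gene GAB1 averaged 19.6 ± 1.31 CPM with the inhibitor and 33.3 ± 2.73 CPM with DMSO (-0.77 ± 0.12, edgeR adjusted p = 1.16e-04). The exchange factor gene SOS1 changed by -0.61 ± 0.16 and the adaptor gene GRB2, whose protein carries SOS to receptors, by -0.37 ± 0.11. Neither SOS1 (adjusted p = 0.0725) nor GRB2 (0.0751) was called without DMSO replicate 3, and SOS1 was not called without inhibitor replicate 2 (0.0633). Of this list, 1 gene fell when DMSO replicate 3 was left out, 2 when inhibitor replicate 2 was, and 4 with library totals.

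Of 10 tested GTPase-activating proteins and other brakes on RAS, 2 rose and 1 fell. LZTR1, an adaptor for RAS degradation, rose by 0.42 ± 0.12, the ubiquitin ligase gene CBLB rose by 0.70 ± 0.22, and RASA3, a GTPase-activating protein, changed by -0.42 ± 0.12. None of the 3 calls held throughout. LZTR1 was not called without inhibitor replicate 3 (edgeR adjusted p = 0.0802) or DMSO replicates 1 (0.0503) or 2 (0.0994), and RASA3 not without inhibitor replicate 2 (0.0633) or DMSO replicate 2 (0.0576) or in thinned libraries (0.0573). CBLB was not called with DESeq2 (0.0822), nor without any 1 library other than inhibitor replicate 1 (0.0502 to 0.108). It was rarely counted, with 269 counts over all libraries, and was not tested with a minimum of 10 CPM. In thinned libraries CBLB was at 1.08 (edgeR adjusted p = 0.0188). NF1, the neurofibromin gene through which Spred proteins act, averaged 31.0 ± 6.82 CPM with the inhibitor and 32.4 ± 4.23 CPM with DMSO (adjusted p = 0.829) and is named for that role, after its values were seen.

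Among 8 tested genes of RAS lipid processing, FNTB fell and 7 were not called. In this list 2 fell without inhibitor replicate 2, with library totals or with no filter beyond 1 count, and 1 rose without inhibitor replicate 3. FNTB encodes the beta subunit of farnesyltransferase, which attaches the lipid that holds RAS proteins at membranes, and averaged 8.13 ± 0.82 CPM with the inhibitor and 15.9 ± 1.27 CPM with DMSO (SD, n = 3 each; -0.96 ± 0.15, edgeR adjusted p = 1.19e-04). Of 10 tested genes of the RAF-MEK-ERK cascade, 1 fell, and it was RPS6KA1, whose kinase product RSK1 is phosphorylated by ERK (-0.87 ± 0.18, adjusted p = 0.00142). The cascade held 2 falls without DMSO replicate 3, with library totals or with no filter beyond 1 count. It held 0 with a minimum of 10 CPM, where RPS6KA1 was not tested. Of 9 related GTPase genes 2 fell, RIT1 (-0.39 ± 0.13, adjusted p = 0.0443) and RAP1B (-0.34 ± 0.11, adjusted p = 0.035). The RIT1 call was lost without any 1 library other than inhibitor replicate 2 (adjusted p from 0.0547 to 0.167), and also with the replicate block (0.0625), DESeq2 (0.0649), thinning (0.162) and a minimum of 10 CPM (0.0525). The RAP1B call was lost without any 1 library other than inhibitor replicate 3 (0.0616 to 0.171), and after thinning (0.0631).

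Downstream, 10 of 16 tested ERK output genes rose and 0 fell, with a median log2 fold change of 0.58, beside 9.92% of all tested genes that rose, 10.3% that fell and a median of 0.0034. The number that rose was between 8 and 10 without any 1 library, and 7 with a minimum of 10 CPM, under which fewer genes were tested. Of this list 2 genes fell when inhibitor replicate 1 was left out, and 1 fell with DESeq2 or with library totals. At an unadjusted p under 0.05 in the edgeR test, 10 were higher and 1 lower, beside 1860 higher and 1941 lower of all 11391 tested genes. The largest changes were in the transcription factor gene EGR1 (2.23 ± 0.27), the growth factor gene HBEGF (1.46 ± 0.10), the cytokine gene LIF (1.30 ± 0.13) and UPP1, the gene of uridine phosphorylase (0.96 ± 0.25, adjusted p = 0.00842). EGR1 and UPP1 were rarely counted, with 231 and 196 counts over all libraries. In thinned libraries EGR1 was at 1.77 and UPP1 at 1.07. The 6 not called were CCND1 (-0.25, edgeR adjusted p = 0.0772), DUSP7 (-0.18), FOSL1 (-0.18), DUSP4 (-0.13), SPHK1 (-0.04) and KCNN4 (0.02). For CCND1 all inhibitor libraries lay below all DMSO libraries. DUSP6, AREG, EREG and MAFF had too few counts to be tested. ETV5 at 0.52 was below the median of that list, and SPRY2 (0.07) and ETV4 (0.22) were further below. The list, like the members, was written with earlier results of these libraries known, so its direction is not independent evidence. ERK activity itself was not measured.

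Of 11 tested ETS factor genes outside the PEA3 group, ETS2 rose and 10 were not called (1 fell when inhibitor replicate 1 was left out, after thinning, with library totals or with DESeq2). ETS2, a nuclear factor that ERK phosphorylates, averaged 126 ± 11.7 CPM with the inhibitor and 82.0 ± 1.57 CPM with DMSO (0.62 ± 0.10, edgeR adjusted p = 2.1e-04). The third PEA3 gene, ETV1, had 3.41, 2.94 and 4.29 CPM with the inhibitor, against 5.67, 6.07 and 4.32 CPM with DMSO. It was not called (-0.62 ± 0.22, adjusted p = 0.0517), and it was called when inhibitor replicate 3 (0.0323) or DMSO replicate 3 (0.036) was left out, and with library totals (0.0275) or no filter (0.0331). The Sprouty and Spred relatives SPRED3 (0.34 ± 0.19, adjusted p = 0.218) and SPRY3 (0.12 ± 0.41, adjusted p = 0.872, 94 counts over all libraries) also missed the threshold. CIC, the repressor of ETV4 and ETV5, was the 1 called gene of 5 tested repressors and degraders of PEA3 factors. It averaged 41.3 ± 2.97 CPM with the inhibitor and 53.9 ± 6.30 CPM with DMSO (-0.38 ± 0.12, adjusted p = 0.024). CIC was no longer called when inhibitor replicate 2 (0.0848), inhibitor replicate 3 (0.056) or DMSO replicate 3 (0.13) was left out.

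**Figure D4:**
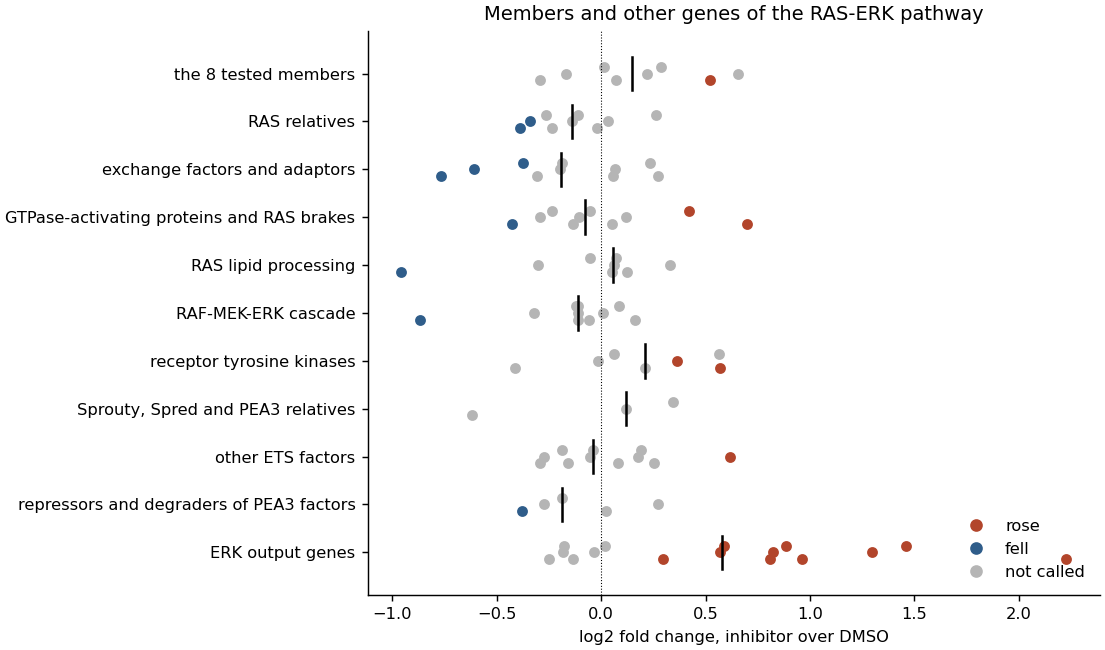
log2 fold change (inhibitor over DMSO, x axis) of each tested gene in the members and in 10 lists of the RAS-ERK pathway, with the list's median as a vertical line; points are offset vertically for legibility. Red genes rose, blue genes fell, and grey genes were not called; in the ERK output list 10 of 16 rose.

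As a check of the label, the mesenchymal genes VIM (5059 to 7177 CPM) and FN1 (228 to 395 CPM) were counted in every library, as were CD44, TGFBI, S100A6 and COL6A3 (13.4 to 63.5 CPM). The epithelial gene CDH1 and the leukocyte genes PTPRC and CD3E had 0 counts, and EPCAM, KRT5 and CD14 had 3, 3 and 4 counts over all libraries. Of the endothelial genes, PECAM1 had 44 counts, with 0.38 to 0.83 CPM in every library, and CDH5 had 7 counts.

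**Figure D5:**
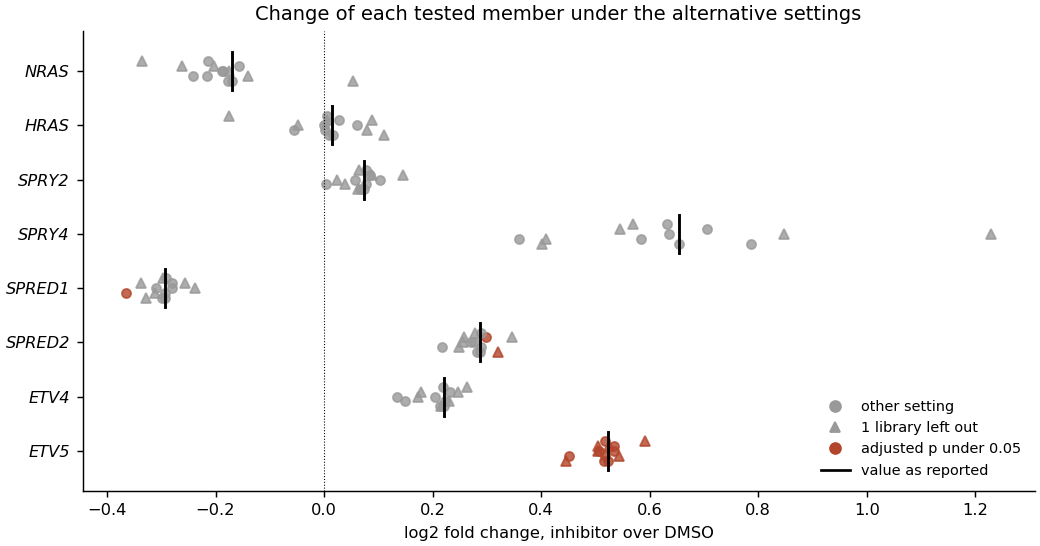
log2 fold change (inhibitor over DMSO, x axis) of each tested member as reported (black line) and under the alternative settings, with circles for other tools, scalings, filters or depth, triangles for 1 library left out, and red for an adjusted p under 0.05. ETV5 stays between 0.45 and 0.59 and is red throughout, NRAS and HRAS lie on both sides of 0, and SPRED1 and SPRED2 keep opposite signs.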

How the data were processed

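Per the labels' protocols, the 6 libraries come from an AmpliSeq panel, in which multiplex PCR amplifies parts of targeted transcripts, read by Ion Torrent sequencing. A shift between isoforms therefore cannot be told from a change of the gene. The deposited values are raw counts of reads per gene symbol. The submitters' processing notes name hg19, HTSeq and DESeq2 1.20.0 without their roles. Aligner and strand setting are not stated, so overlapping genes and cross-counting among related GTPase genes, such as RAP1A and RAP1B, are uncertain. Sequences are from RefSeq (GRCh38.p14).

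Groups came from the sample titles. The fit used edgeR 4.0.16 in R 4.3.3. filterByExpr left 11391 of 20683 genes with 99.924% of counts. TMM factors were applied, and glmQLFTest compared inhibitor with DMSO without covariates. p was adjusted by Benjamini-Hochberg over all tested genes, with a call under 0.05, to which rose and fell refer. SE is the absolute log2 fold change over the square root of F. Ratios used 0.5 added to each count and exact permutation tests; those with SPRY1, which had no count, were not computed. Named genes are the members, up to 4 called genes per list with the largest change (or 2 with the smallest p), and the 2 nearest profiles of a called member with at least 5 CPM (prior count 2 on the log2 scale), of which 1 is not reported here. As alternatives, each library was left out, libraries were thinned to equal depth, limma 3.58.1 voom and DESeq2 1.42.0 replaced edgeR, a replicate block was added, scaling used library totals or DESeq2 size factors, and the filter was dropped or set at 10 CPM. The procedure was tested on simulated counts. No 2 libraries of a group were alike within sampling noise (chi-square over its degrees of freedom, 8.52 to 13.4). Reads were amplified without molecular identifiers, so limits from counts cover counting error only. The series calls the replicates biological. The members, lists and tests were chosen with earlier results of these data known.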

Additional observations from a re-analysis of the deposited data

How the results depend on the processing

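ETV5 kept its direction and its call under all 14 alternatives (log2 fold change from 0.45 to 0.59, adjusted p up to 0.0107). The members that rose numbered 2 with a minimum mean of 10 CPM, where 873 of 7952 tested genes rose. Without any 1 library they numbered between 1 and 2. They were 2 without inhibitor replicate 3, where 1133 of 11525 tested genes rose. The second was SPRED2 in both settings. The members that fell numbered 1 with library totals alone, where SPRED1 was called and 1714 of 11391 tested genes fell, and 0 without any 1 library. The cause of these shifts was not tested. HRAS was at -0.0561 with library totals and at -9.38e-04 with no filter beyond 1 count, and between -0.18 and 0.11 without any 1 library. NRAS lay between -0.33 and 0.05 without any 1 library, with 0.0533 when inhibitor replicate 3 was left out. Genes changed over the whole table numbered 1405 without DMSO replicate 2 (684 rose, 721 fell), and up to 2246 without another library, with at most 1133 that rose and 1113 that fell. SPRY4 was not tested with a minimum mean of 10 CPM. With a replicate block, ETV5 was at 0.52 (adjusted p = 0.0018), 1 member rose and 0 fell. Deviations of libraries with the same number were correlated at 0.03, -0.02 and 0.01, and those with different numbers at -0.08 to 0.08. No effect shared by number was seen. With 3 libraries per group this check cannot tell whether libraries of the same number were handled as pairs. SPRY4 rests on 83 counts over the 6 libraries.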
